A study of Caenorhabditis elegans with 2 samples.

Results

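Genes of the cell cycle and of DNA replication were described here by the peaks of CEH-82, a homeodomain protein of the nematode Caenorhabditis elegans, at their promoters. The members were the protein-coding genes whose names start with cdk-, cyb-, cya-, cye-, cyd-, cdc- (without cdc-48), mcm-, orc-, rnr-, pcn-, rfc-, cki-, psf- or rpa-. The names gave 60 genes of 19973 protein-coding genes on the nuclear chromosomes. The rule used names alone, but it was set with earlier results of these data known. A name does not make a function: cdc-50.B, cdc-5L and mcm-3AP meet the rule by their letters, and relatives of these genes in other animals are known in lipid transport, splicing and messenger RNA export. They had no peak at their promoters in any deposited ce11 list made from both replicates.

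Chromatin immunoprecipitation and sequencing (ChIP-seq) was done on whole L1 larvae of mixed sex, from strain OP212, which carries unc-119(ed3) III and the array ddEx58. The array gives ceh-82, also called F45C12.2, a C-terminal GFP-FLAG tag, and the labels call its expression stable. There was 1 group with 2 biological replicates of this single transgenic line, with no second strain, stage or treatment, so every comparison is between genes and not between conditions. The labels give ceh-82 as the antibody and do not say whether the tag or the protein itself was precipitated, so the peaks may not be of the tagged protein alone. The control that the labels name as possible was not analysed here. Extra-chromosomal arrays can be lost from some cells, and the signal is an average over all tissues of the larva.

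DNA replication starts where the origin recognition complex (ORC, from orc- genes) and the licensing factor CDC-6 load the MCM ring, a helicase. Kinases then fire the origin, the GINS complex joins the ring, the clamp loader (RFC) sets the sliding clamp PCN-1 on DNA, and ribonucleotide reductase supplies nucleotides. Cyclin-dependent kinases (CDKs) with their cyclins drive these steps and mitosis, and CKI inhibitors hold cells in arrest. In the L1 larva some cell lineages divide after hatching while others are quiescent, and several genes named cdk- serve transcription or neurons instead of the cycle.

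A peak was counted for a gene when its summit lay from 1000 bp upstream to 200 bp downstream of one of its transcript starts. The thresholded list held the 2052 peaks that passed the authors' reproducibility threshold, and some of them overlapped no relaxed peak of replicate 1. The pooled relaxed list held 30000 entries that the authors label as peaks and background, so a relaxed peak alone may be background. Signal is the authors' score of a peak, and its scale differs between lists. Of the 60 members, 16 had a thresholded peak (26.7%, against 9.91% of all protein-coding genes). Another 22 had only a relaxed peak (36.7%, against 33.4%), and 22 had neither, so that 38 had some pooled peak (63.3%, against 43.4%). The 16 genes shared 15 peaks, since cyb-1 and orc-5 had the same one. The share of members was given beside the share of all genes as a description, and no test between them was made.

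The thresholded peaks were at pcn-1, rfc-4 and rfc-2, at cdc-6, orc-5, mcm-4, mcm-10 and psf-3, at the kinase genes cdk-5, cdk-7, cdk-9, cdk-11.2 and cdk-8, at the cyclin genes cye-1 and cyb-1, and at cdc-73. Among them were 5 of 11 cdk- genes, 3 of 8 genes for the clamp, its loader and single-strand binding, 4 of 14 licensing genes, 2 of 8 cyclin genes, 1 of 4 origin firing genes and 1 of 6 other cdc- genes. None of the 2 rnr- genes, the 2 cki- genes or the 5 phosphatase genes had one. These groups followed the names, so that mcm-10 and mcm-3AP stood with licensing.

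**Figure D1:**
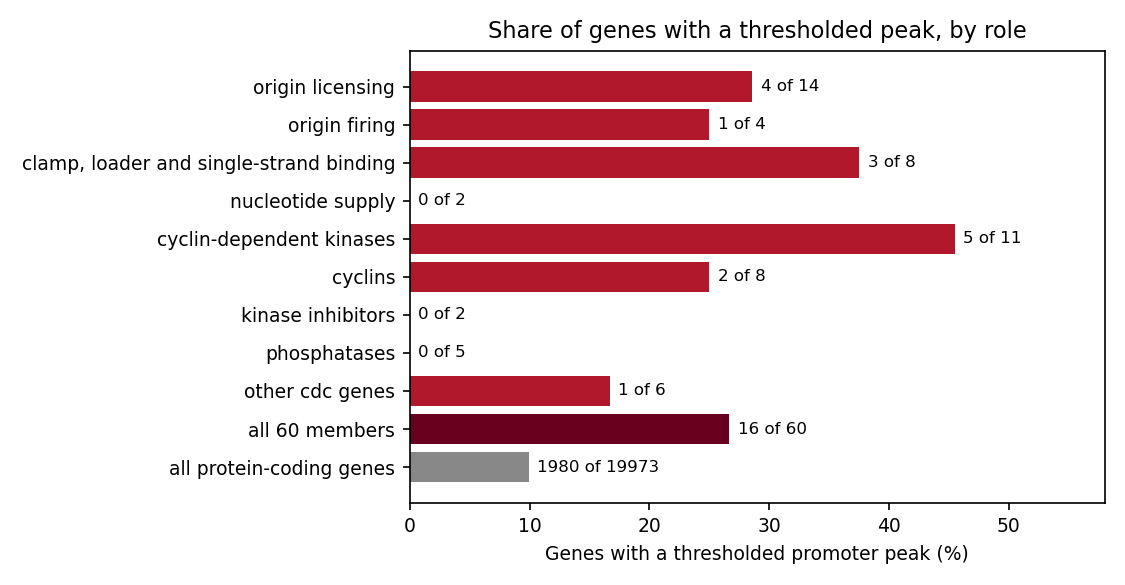
Bars give the percentage of genes in each group that had a thresholded promoter peak, with the counts beside them. The 60 members stood at 26.7% and all protein-coding genes at 9.91%, and groups of 2 to 14 genes make the single bars coarse.

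The sequences at the summits are shown for members that the results turn on: the clamp, the kinases cdk-5 and cdk-11.2, the promoter between cyb-1 and orc-5, mcm-10, rfc-2, and the MCM genes mcm-2 and mcm-7, whose peaks fell just below the threshold. Each is the 100 bp centred on the summit, read 5′ to 3′ on the strand of the named gene from the RefSeq sequence of WBcel235 (ce11). Capitals mark matches on either strand to the motifs counted below. These were the forms TTCCCGC and also TTGGCGC of E2F elements, the homeodomain core TAAT with its longer form TAATTA, the repeat GAGAG, the E-box CACGTG, and the short string CGCG.
pcn-1: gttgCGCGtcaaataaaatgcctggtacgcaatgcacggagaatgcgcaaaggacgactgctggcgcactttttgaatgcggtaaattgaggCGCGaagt
cdk-5: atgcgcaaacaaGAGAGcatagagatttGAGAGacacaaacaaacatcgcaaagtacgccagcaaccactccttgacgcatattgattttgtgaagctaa
cdk-11.2: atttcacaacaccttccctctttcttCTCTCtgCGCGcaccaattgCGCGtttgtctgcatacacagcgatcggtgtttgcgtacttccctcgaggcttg
cyb-1: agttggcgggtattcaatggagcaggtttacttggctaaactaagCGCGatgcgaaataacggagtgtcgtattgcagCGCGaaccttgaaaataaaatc
mcm-10: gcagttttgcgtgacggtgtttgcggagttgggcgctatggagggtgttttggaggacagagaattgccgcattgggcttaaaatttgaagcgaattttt
rfc-2: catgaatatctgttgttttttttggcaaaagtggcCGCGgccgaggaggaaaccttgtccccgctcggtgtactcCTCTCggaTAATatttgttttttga
mcm-2: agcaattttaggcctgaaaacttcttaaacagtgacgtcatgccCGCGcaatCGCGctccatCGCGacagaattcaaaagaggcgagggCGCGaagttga
mcm-7: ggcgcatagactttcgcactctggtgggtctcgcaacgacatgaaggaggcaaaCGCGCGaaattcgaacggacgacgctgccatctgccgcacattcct

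These windows lie at chrIV:4049652-4049751 (pcn-1, minus strand), chrIII:13466368-13466467 (cdk-5, minus), chrX:10419895-10419994 (cdk-11.2, minus) and chrIV:10734678-10734777 (cyb-1, plus). The other windows are chrIII:11317206-11317305 (mcm-10, plus), chrIV:1347115-1347214 (rfc-2, plus), chrII:12006839-12006938 (mcm-2, minus) and chrV:4346963-4347062 (mcm-7, plus). None of the 8 windows overlapped an annotated exon.

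The licensing genes were led by cdc-6 (WBGene00000382, peak at chrI:4270464-4270693), whose product helps to load the MCM ring. Its peak had a signal of 109.8 and ranked 143 in the pooled list, with the summit 292 bp upstream of the cdc-6 start. It had a signal of 24.7 in replicate 1 and 77.6 in replicate 2, at ranks 142 and 170, so both replicates placed it alike. The same summit lay 87 bp upstream of acin-1, which is transcribed the other way.

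The ORC genes were split. The peak of orc-5 (WBGene00013857, peak at chrIV:10734613-10734842) had a signal of 43.6 at rank 901, with 9.38 in replicate 1 and 32.04 in replicate 2, at ranks 1065 and 979. Its summit lay 140 bp upstream of orc-5 and 488 bp upstream of the divergent gene cyb-1 (WBGene00000865), which encodes a B-type cyclin of mitosis. orc-3 and orc-4 had relaxed peaks of 8.76 and 8.83, and the orc-4 peak overlapped no relaxed peak of either replicate. orc-1 and orc-2 had no pooled peak in their windows. The start of orc-4 lies 112 bp past the end of orc-1 on the same strand, and that of orc-2 lies 135 bp past the end of copz-1, whose promoter had a thresholded peak of 70.1 at a distance of 1195 bp from orc-2.

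The 6 genes of the MCM ring, mcm-2 to mcm-7, ranged from a thresholded peak to none. mcm-4 (WBGene00003156, peak at chrI:2321862-2322091) passed with 36.96 at rank 1141, 160 bp upstream of its start, with signals of 5.98 in replicate 1 and 29.9 in replicate 2 (ranks 1947 and 1069). Relaxed peaks stood at mcm-2 (22.33), mcm-7 (21.1), mcm-5 (15.7) and mcm-3 (10.2), and mcm-6 had none. The mcm-2 peak ranked 2053 in the pooled list, the first entry below the 2052 that were kept, whose lowest signal was 22.34. The last member above that limit was cdk-8, with 22.9 at rank 1987.

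The peaks below the threshold at the MCM genes had lower rank numbers in replicate 2, whose list is the longer one (30000 entries, against 16551 in replicate 1). That of mcm-2 ranked 5100 in replicate 1 and 2496 in replicate 2, and that of mcm-7 ranked 4991 and 1855. The mcm-5 and mcm-3 peaks overlapped no relaxed peak of replicate 1. mcm-2, mcm-7 and mcm-5 were at the ceiling of 3.81 that the pooled list has for -log10 q, as all thresholded peaks were, so the q value does not set them apart from mcm-4. mcm-10 (WBGene00012935, peak at chrIII:11317141-11317370), whose product is needed for the helicase to start unwinding, had a thresholded peak of 36.3 at rank 1172 in an intron of teg-1. Its ranks were 3999 in replicate 1 (signal 4.07) and 923 in replicate 2 (signal 33.3), a wide gap between the replicates.

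Among the origin firing genes, psf-3 (WBGene00022043, peak at chrI:534219-534448), for a GINS subunit, had a thresholded peak of 26.95 at rank 1681, 121 bp upstream of its start. It ranked 2807 in replicate 1 (signal 4.83) and 1700 in replicate 2 (signal 20.96). The other GINS genes of the rule, psf-1 (10.5) and psf-2 (8.06), had relaxed peaks with no overlapping peak in replicate 1. cdc-7, for the kinase that fires origins, had a relaxed peak of 17.3, and a thresholded peak lay outside its window, 1350 bp upstream, in the window of vpr-1.

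The sliding clamp gene pcn-1 (WBGene00003955) had the strongest peak of the 60 genes. Its signal was 121.7 at rank 109, from a peak of 70 bp at chrIV:4049678-4049747 with the summit 254 bp upstream. Replicate 1 gave a signal of 30.1 (rank 92) and replicate 2 a signal of 91.4 (rank 117), and both summits fell on the pooled one. No other protein-coding gene had this summit in its window. The window shown above held CGCG at 2 places near its ends.

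The clamp loader genes followed. rfc-4 (WBGene00004340, peak at chrIII:6971993-6972222) had a signal of 113.6 at rank 130. rfc-2 (WBGene00004338, peak at chrIV:1347050-1347279) had 31.99 at rank 1383, 149 bp upstream of its start. The rfc-4 summit lay 145 bp upstream of its start and 396 bp upstream of eef-1A.1, a translation elongation factor gene on the other strand, and a microRNA gene, cel-mir-5549, was within 200 bp. The rfc-4 peak had 19.2 in replicate 1 and 89.6 in replicate 2 (ranks 299 and 123), and the rfc-2 peak 5.02 and 25.6 (ranks 2612 and 1313). The rfc-4 peak was thus high in both replicates, while rfc-2 was outside the strongest 2052 of replicate 1. rfc-1 had only a relaxed peak (7.32), and rfc-3 had none. The rfc-3 start lies 272 bp past the end of C39E9.12, whose window held a thresholded peak of 29.7.

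Single-strand binding and nucleotide supply genes had no thresholded peak. Replication protein A genes coat unwound DNA, and of these rpa-2 had a relaxed peak of 10.2 with the summit 701 bp upstream, while rpa-1 and rpa-4 had none. rnr-1, for the large subunit of ribonucleotide reductase, had 13.2 in the relaxed list with no overlapping peak in replicate 1. rnr-2, for the small subunit, had none.

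**Figure D2:**
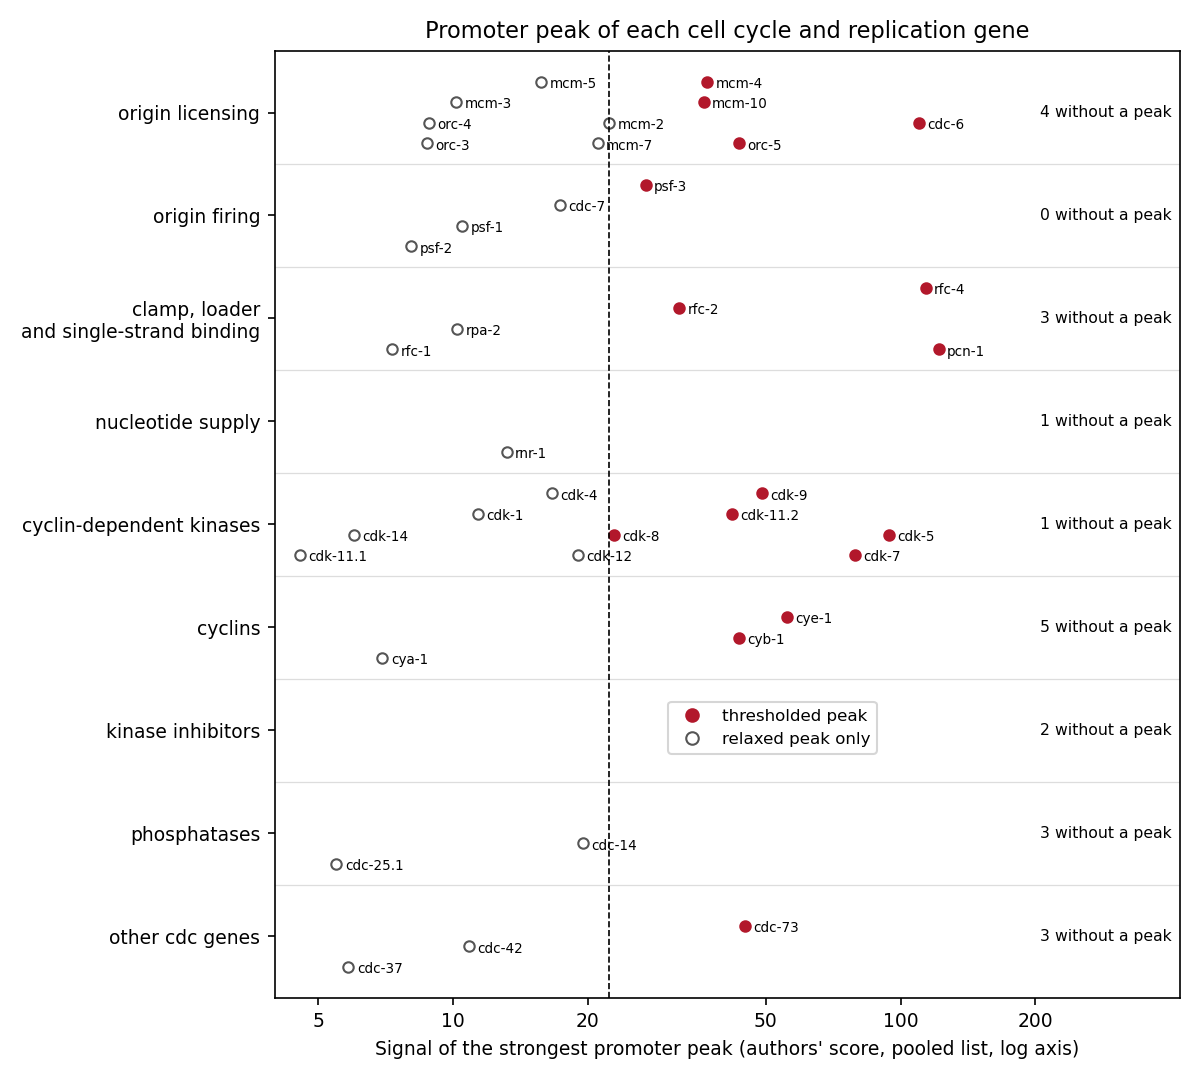
Each point is the strongest promoter peak of one member, by its signal in the pooled list on a log axis, with filled points for thresholded and open points for relaxed peaks. The dashed line marks the lowest thresholded signal (22.34). pcn-1, rfc-4 and cdc-6 lie farthest right, mcm-2 lies on the line, and no cki- gene has a point.

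The kinase genes with a thresholded peak did not include cdk-1, cdk-2 or cdk-4. cdk-5 (WBGene00000407, peak at chrIII:13466303-13466532), which acts in neurons of animals, had a signal of 94.1 at rank 199, with 18.3 in replicate 1 and 74.7 in replicate 2 (ranks 331 and 191). Its summit lay 76 bp upstream of cdk-5 and in an intron of the divergent gene kel-3. cdk-7 (WBGene00000408, peak at chrI:2291110-2291339), for the kinase of the general transcription factor TFIIH that also activates other CDKs, had 79.1 at rank 298 with the summit 20 bp upstream. Its replicate signals were 12.6 and 63.3 (ranks 672 and 279), so both kinases were among the strongest 2052 peaks of each replicate.

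cdk-9 and cdk-8 encode kinases of RNA polymerase II transcription. The peak of cdk-9 (WBGene00000410, peak at chrI:11323247-11323476) had 48.99 at rank 739, with signals of 5.96 in replicate 1 and 43.05 in replicate 2 (ranks 1959 and 610), 165 bp upstream of its start. It lay 252 bp upstream of hxk-2, a hexokinase gene on the other strand. The peak of cdk-8 (WBGene00000409, peak at chrI:8702342-8702571), 9 bp upstream of the start and 484 bp upstream of tlf-1, had 5.30 and 17.01 in replicates 1 and 2. Its ranks there were 2363 and 2114, outside the strongest 2052 of both. cdk-12, another transcription kinase gene, had a relaxed peak of 19.0.

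The kinases of the core cycle were below the threshold. cdk-1, the mitotic kinase, had a relaxed peak of 11.4, which ranked 2078 in replicate 1 and 7254 in replicate 2. cdk-4, the partner of cyclin D, had 16.7, at ranks 4661 and 2576. The replicates thus ordered cdk-1 and cdk-4 in opposite ways. cdk-2, a kinase of S phase, had no pooled peak. Apart from these kinases, cdk-14 had a relaxed peak of 6.00, with the summit in an exon of cdk-14 itself.

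The paralogs cdk-11.2 and cdk-11.1 had unequal peaks. cdk-11.2 (WBGene00013917, peak at chrX:10419830-10420059) had a signal of 41.9 at rank 952, with the summit 180 bp upstream, and it ranked 648 in replicate 2 with a signal of 41.4. It overlapped no relaxed peak of replicate 1, as did 77 of the 1439 thresholded promoter peaks, so this call rests on replicate 2 and the pooled list. cdk-11.1, on chromosome II, had 4.55 at rank 29013 of 30000. The summit windows shared a run of 18 bases, on the strand of each gene, which is shown because it is the longest run common to both windows.
cdk-11.2 and cdk-11.1: atcggtgtttgcgtactt

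This run lies at chrX:10419908-10419925 (minus strand), 143 to 160 bp upstream of cdk-11.2, and at chrII:7699206-7699223 (plus strand), 12 to 29 bp upstream of cdk-11.1. No other of the 1439 thresholded or 8545 relaxed promoter windows of 100 bp held it on either strand. Whether reads were shared between the copies was not tested.

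Of the cyclins, cye-1 and cyb-1 had thresholded peaks. cye-1 (WBGene00000871, peak at chrI:6780124-6780353), the cyclin of entry into S phase, had 55.6 at rank 596, with 18.99 in replicate 1 and 38.3 in replicate 2 (ranks 309 and 738). Its summit lay 560 bp upstream, the farthest among the 16 genes, and 88 bp upstream of the divergent gene pqn-21. cyb-1 shared the orc-5 peak described above. cya-1, a cyclin A gene, had a relaxed peak of 6.96 that overlapped a peak of replicate 1 (rank 3509) and none of replicate 2. cyd-1, cya-2, cyb-2.1, cyb-2.2 and cyb-3 had no pooled peak. The summit counted for cyb-1 lay 488 bp from its start and 140 bp from that of orc-5. It therefore does not set cyb-1 apart from the other B-type cyclin genes.

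The inhibitors cki-1 and cki-2, which hold cells out of the cycle, had no pooled peak, and the nearest thresholded summit lay 46350 bp and 40900 bp away. Among phosphatase genes, cdc-14 had a relaxed peak of 19.5 at 971 bp upstream, near the edge of its window. It ranked 14116 in replicate 1 and 2412 in replicate 2 and lay 316 bp upstream of ttc-4. A different peak of replicate 1 with its summit in the cdc-14 window ranked 2250. Of the 4 cdc-25 genes, for phosphatases that activate CDKs, cdc-25.1 had a relaxed peak of 5.49, and cdc-25.2, cdc-25.3 and cdc-25.4 had none.

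The remaining cdc- genes have varied roles. cdc-73 (WBGene00018064, peak at chrIV:4042334-4042563), for a subunit of the Paf1 complex of transcription elongation, had a thresholded peak of 44.96 at rank 859, 126 bp upstream, with 7.01 and 37.5 in replicates 1 and 2 (ranks 1574 and 761). cdc-42, a small GTPase of cell polarity, had a relaxed peak of 10.8, and cdc-37, a cochaperone of protein kinases, 5.84. cdc-26, for a subunit of the anaphase-promoting complex, cdc-50.B and cdc-5L had none. The cdc-26 start lies 232 bp past the end of eif-3.E, whose window held a thresholded peak of 74.0.

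Position was similar among the members with a thresholded peak. All 16 summits lay upstream of the start, at a median of -154.5 bp (range -560 to -9), against -222 bp over all 1980 genes with a thresholded peak, of which 96.7% had an upstream summit. In 14 of the 16 cases the summit lay in intergenic sequence, and in the others in an intron of the divergent neighbour. Just outside the upstream edge of the window, the nearest thresholded summits were those of orc-2 (1195 bp upstream), cdc-7 (1350), mcm-3AP (1596) and rfc-3 (1897), and past the downstream edge one lay 659 bp from the start of rpa-4. At the 44 members without a thresholded peak the nearest one was a median of 13600 bp from the start, and over 5000 bp away for 36. Neither the intergenic placement nor these distances to the nearest peak were worked out for all genes, so they do not set the members apart.

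**Figure D3:**
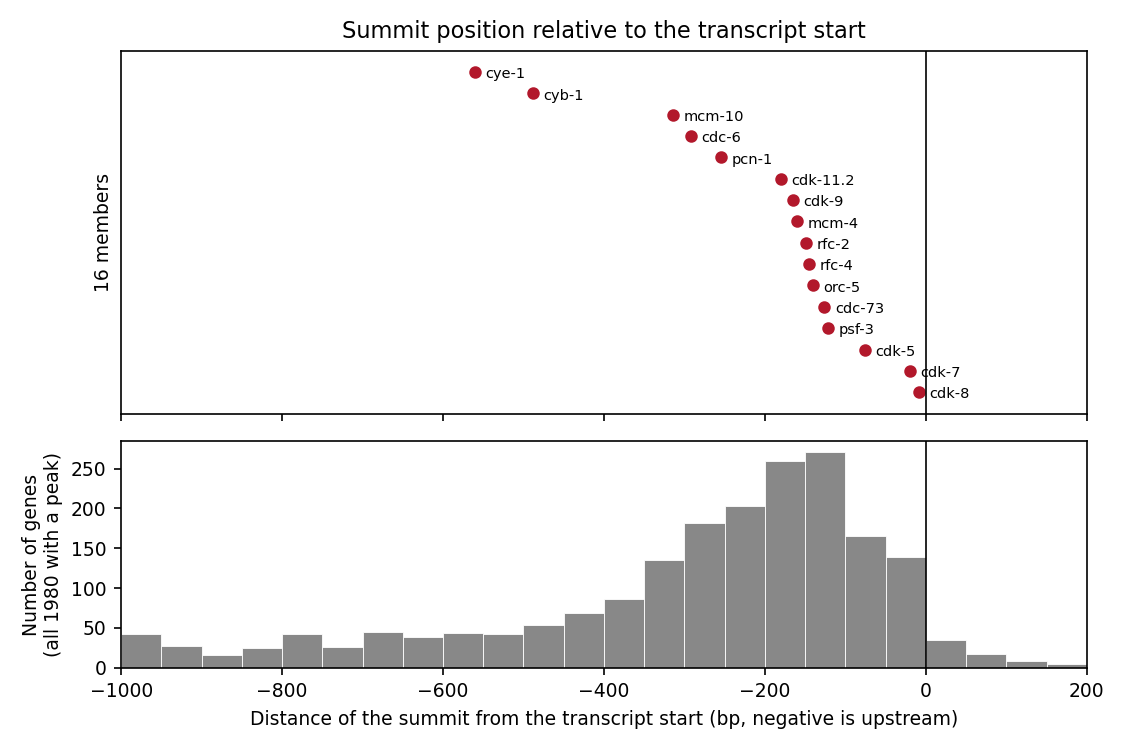
The upper part gives the summit of each of the 16 members relative to its transcript start, in bp, with negative values upstream. The lower part gives the number of all 1980 genes with a thresholded peak in bins of 50 bp. The members run from -560 bp at cye-1 to -9 bp at cdk-8, and 13 of the 16 lie within 300 bp of the start. The interquartile range was -263.5 to -124.75 bp for the members and -384.5 to -130 bp for all genes.

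Shared promoters were frequent. In 9 of the 16 cases (56.2%, against 57.1% of all genes with a thresholded peak) the summit also lay in the window of another protein-coding gene, and in all 9 that gene was divergent. The peaks of cdc-6, mcm-10, cye-1 and cyb-1 were nearer to the partner than to the member. Counted only for the gene of the nearest start, 12 members had a peak (20%, against 7% of all genes). Counted only where the summit lay in the window of a single gene, 7 members did (11.7%, against 4.29%), and these were pcn-1, rfc-2, psf-3, mcm-4, cdk-7, cdk-11.2 and cdc-73. At a shared promoter the lists cannot assign the peak to either gene.

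Genes that follow another gene closely on the same strand were few. A protein-coding gene on the same strand ended within 500 bp upstream of 8 of the 60 members (13.3%, against 18.1% of all protein-coding genes). Of these, mcm-4 had its own thresholded peak. For orc-2, rfc-3 and cdc-26 a peak lay in the window of the upstream gene, as given above, and in that of a second gene too (cyn-4, prcc-1 and B0511.17), and for the other members of this kind (orc-4, mcm-5, rnr-1 and cdc-5L) neither had one. In this species such close pairs can be operons, and whether these are was not tested.

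The signals of the 16 members were in the range of other promoter peaks. Their median was 44.3 (interquartile range 36.8 to 82.9), against 45.1 (31.06 to 70.6) over all 1980 genes. A signal above the list's median of 39.8 was found for 11 members (68.8%, against 57.3% of the 1980). For the 22 members with a relaxed peak alone, the median was 10.4 (range 4.55 to 22.33), against 6.76 over all genes of that kind. Of these members, 7 were at the q ceiling. The others had a lower -log10 q, the lowest being 0.06 at cdk-11.1, 0.19 at cdc-25.1 and 0.25 at cdc-37. Of these 22 peaks, 12 overlapped a relaxed peak of replicate 1 (54.5%, against 31.1% over all 6680 genes of that kind), 20 one of replicate 2 (90.9%, against 77%) and 11 one of both (50%, against 21.8%).

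The replicates differed in how many members they supported. A peak among the strongest 2052 lay in the window of 11 members in replicate 1 (18.3%, against 9.14% of all genes) and of 16 in replicate 2 (26.7%, against 9.86%). All 11 of replicate 1 were also found in replicate 2 (18.3%, against 7.38%). The thresholded peaks of cdk-8, mcm-10, psf-3, rfc-2 and cdk-11.2 were outside the strongest of replicate 1. In replicate 2 that of cdk-8 was outside and the relaxed peak of mcm-7 was inside. For 15 members with a match in both, replicate 2 scored a median of 4.34-fold higher, from 2.02-fold at cye-1 to 8.17-fold at mcm-10, against a median of 3.54-fold (interquartile range 2.69 to 4.71) for thresholded promoter peaks. The scales of the lists differ, so the fold is not a difference in binding.

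**Figure D4:**
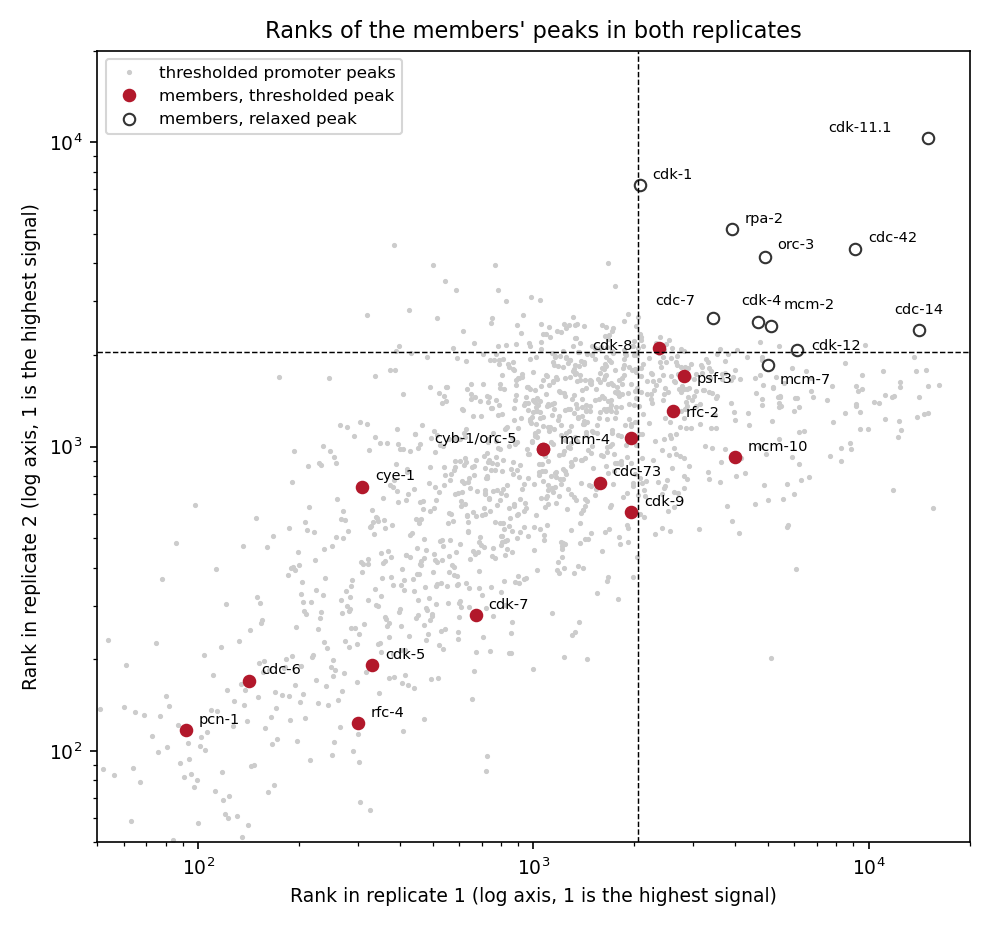
Each point is a peak by its rank in replicate 1 and in replicate 2, both on log axes where 1 is the highest signal, with the members filled (thresholded) or open (relaxed) and thresholded promoter peaks in grey. Dashed lines mark rank 2052, and the axes start at rank 50. pcn-1, cdc-6, rfc-4 and cdk-5 rank high in both replicates, while mcm-10 ranks 3999 in replicate 1 and 923 in replicate 2.

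The summit windows were richer in G and C than the genome. The 15 thresholded peaks had a median of 46% (range 38 to 56), against 48% for all 1439 thresholded promoter peaks and 35.4% for the nuclear chromosomes. CGCG, on either strand, was in 8 of 15 windows (53.3%, against 58% of all thresholded promoter windows), and GAGAG in 7 (46.7%, against 41.5%). TAAT, the core bound by many homeodomains, was in 4 (26.7%, against 33.1%), and the longer TAATTA, which contains it, in 0 (1.53% of all). CACGTG was in 0, against 3.2%. A match is a string of letters and not a site shown to be bound. At the 22 relaxed summits of members, the median G and C share was 43.5% (38% over 8545 relaxed promoter summits). CGCG was in 14 of these 22 windows (63.6%, against 15.1%), among them those of mcm-2, mcm-7 and rnr-1. TAAT was in 13 (59.1%, against 57.7%) and GAGAG in 4 (18.2%, against 21.6%).

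E2F is a factor family known to control replication genes in animals. Of its elements only the forms TTCCCGC and TTGGCGC were searched for, and 2 of the 15 thresholded windows held a match. Other forms were not counted, so a window without a match here may still hold one. TTCCCGC was in those of mcm-4 and psf-3 (13.3%, against 2.92% of all), and TTGGCGC in that of mcm-4 (6.67%, against 6.74%). In mcm-4, TTCCCGC lay 194 to 200 bp upstream and TTGGCGC 163 to 169 and 171 to 177 bp upstream, beside a row of CGCG matches. In psf-3, TTCCCGC lay 102 to 108 bp upstream. At the 22 relaxed summits TTCCCGC was in 0 windows (1.15% of 8545 relaxed promoter windows) and TTGGCGC in 2 (9.09%, against 1.06%).

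Other genes, of the same or related processes, came from a hand-written list of 113 names, drawn up with earlier results of these data known. As for the members, a place in this list does not show a role in the cell cycle or in replication. Of the 103 that matched a protein-coding gene, 46 had a thresholded peak (44.7%, against 9.91% of all protein-coding genes). These shares describe that list alone. The median signal of the 46 was 42.07 and the median summit distance -159.5 bp. The summit lay in the window of another gene for 36 of them (78.3%, against 57.1% of all genes with a thresholded peak). In the listed groups, 9 of 12 genes of licensing control and the fork, 9 of 14 of cohesin, condensin and separase, 7 of 14 for polymerases, primase and ligases, and 10 of 23 for checkpoints and mitotic kinases had one. So did 5 of 12 other cyclins and CDK partners, 2 of 5 of the E2F, DP and pocket protein group, 4 of 20 of the anaphase-promoting complex and ubiquitin ligases, and 0 of 3 for nucleotide supply. These are counts of genes: cit-1.1 and cit-1.2 of the cyclin group had the same peak, with the summit at -156 bp and -795 bp. The polymerase group had 19 listed names and the cohesin group 15. Genes whose names found no match, the pold- names among them, were not assessed.

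The fork genes dnsn-1 (165.6, shared with C24H12.4), clsp-1, for the checkpoint mediator claspin (129.3, with eef-2), and tim-1 (91.5, with Y75B8A.23) had the strongest peaks of their group. The cohesin loader gene scc-2 (123.2) led the cohesin group, before ify-1, for securin (117.4, shared with rpl-22), and scc-1 (45.7, with rpn-5). Of the polymerase group, lig-4 (109.9, shared with cux-7 and C07H6.2), top-2, for topoisomerase II (89.5, with npp-3), and polh-1, for a translesion polymerase (86.6, with rps-22), had the strongest. The checkpoint group was led by zwl-1 (91.2, shared with dot-1.1), mdf-2 (77.9, with nduv-3) and hpr-17 (67.0, with F32A11.1). The E2F gene efl-1 had 70.6 (shared with fbxa-90) and the retinoblastoma-like gene lin-35 38.5 (with vps-51). The ubiquitin ligase group was led by lin-23 (63.8), gfi-3 (58.7) and cul-4 (50.01). The cyclin group was led by cdkr-3 (41.1, shared with prmt-1), cyl-1 (35.3, with C52E4.7) and cic-1 (32.4, with strm-1). Among these genes, scc-2, lin-23, gfi-3 and cul-4 had no other protein-coding gene with the summit in its window.

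The polymerase alpha genes pola-1 (44.6, shared with Y47D3A.1) and div-1 (28.7, with cor-1) and the primase gene pri-2 (45.3, with W02D9.2) had thresholded peaks, and the other primase gene, pri-1, had only a relaxed one (18.6). The div-1 peak overlapped no relaxed peak of replicate 1. cdt-1, whose product brings the MCM ring to origins, had a thresholded peak of 34.2, at rank 1191 in replicate 1 and 1518 in replicate 2. gmn-1, for its inhibitor geminin, had one of 34.7, at ranks 3731 and 985. The gmn-1 summit lay 986 bp upstream, at the outer part of its window, and also in the windows of Y75B8A.18 and Y75B8A.19.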

How the data were processed

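ChIP-seq of CEH-82 was available as peak lists of 2 replicates. The authors aligned reads to ce11, called relaxed peaks in each replicate (16551 and 30000 entries) and on both pooled (30000), and thresholded them by irreproducible discovery rate (2052 peaks), per the file headers. The deposited signal is the authors' score per peak, and the deposited -log10 q value is per peak as well. Per the file headers the relaxed lists also derive from a further file that the control-normalized tracks use. No aligner, caller or read depth is stated there or in the labels, so the precision is unknown. The lists on ce10 were not used here.

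Windows, summits and distances were computed with the Ensembl release 115 annotation of WBcel235, which is ce11, and sequences came from RefSeq's copy of that build. All coordinates count from 1. Peaks of different lists were matched by an overlap of at least 1 bp, and the best-ranked match was taken. The window search was tested on simulated summits. With 1 group there was no test between conditions. Members were not treated as replicates and no enrichment test was made. The members and lists were chosen with earlier results of these data known. All members are named. Of other pathway genes, the 3 strongest per group are named, and pola-1, div-1, pri-1, pri-2, cdt-1 and gmn-1 were chosen after their values were seen. Same-strand neighbours and the run shared by the cdk-11 genes were also examined after seeing the data. Calculations used Python 3.11.15, NumPy 2.4.6 and pandas 2.3.3, and plots matplotlib 3.10.9.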

Additional observations from a re-analysis of the deposited data

How the results depend on the processing

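The count of 16 members with a thresholded peak (9.91% of all genes had one) was 15 with windows of 500 bp upstream (8.24% of all genes), 20 with 2000 bp (12.6%), 11 with signal above the list median (5.68%) and 16 with any base in the window (10.3%). It was 12 with the nearest start (7%) and 7 with only peaks that fell in 1 gene's window (4.29%). Counted from 1 replicate's strongest 2052 peaks, it was 11 without replicate 2 (9.14% of all genes), where cdk-11.2, cdk-8, mcm-10, psf-3 and rfc-2 were lost. It was 16 without replicate 1 (9.86%), where cdk-8 was lost and mcm-7 gained. It was 15 when peaks had to overlap a relaxed peak of both replicates (9.42%), which cdk-11.2 did not, an alternative added after seeing the data. The 4 members gained with 2000 bp were cdc-7, mcm-3AP, orc-2 and rfc-3.

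The 46 other pathway genes were 24 with the stricter signal, 30 with the nearest start and 10 with a single gene, where the share of all genes was 5.68%, 7% and 4.29%, and they ranged from 42 to 45 with 1 replicate. The members with only a relaxed peak were 22, and 11 when the peak had to overlap both replicates, where the share of all genes was 7.73%, against 33.4% before. The 11 members among the strongest peaks of both replicates were 6 when the strongest 1026 peaks of each were taken (4.13% of all genes, against 7.38% as reported) and 17 when the strongest 4104 were (10.4%). The members sharing a peak were 9, and 15 with 2000 bp windows. The median distance was -172.5 bp with 2000 bp windows and -165 bp with the stricter signal. Their median signal of 44.3 was 43.6 with windows of 500 bp and of 2000 bp, and 55.6 with the stricter signal. The G and C share was 39.5% in windows of 200 bp, an alternative added after seeing the data. No paired analysis was possible because there is only 1 group. Depth is unknown, so a gene with no peak is one where none was detected.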
